A study of Mus musculus with 28 samples.

Results

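The genes described here are the chemokines, the small secreted proteins that direct white blood cells to where they are needed, and the receptors that read them. They were taken from the mouse gene symbols of the count table: every symbol that begins with *Ccl*, *Cxcl*, *Cx3cl*, *Xcl*, *Ccr*, *Cxcr*, *Cx3cr*, or *Xcr* and ends in a number with at most 1 further letter. Described are 54 such genes among the 21935 in the table, and 31 of them reached the mean of at least 0.3 CPM over all 28 mice that was asked of a gene before it was tested, where CPM are the counts of a gene scaled to a library of 1000000 reads. The 31 tested genes were 12 of the 23 CC ligands, 8 of the 12 CXC ligands, 1 of the 2 ligands of the CX3C and XC types, and 10 of the 17 receptors.

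Messenger RNA was measured in the livers of male B6.V-Lepob/JRj mice, which carry the ob mutation of the leptin gene and become obese. All mice, vehicle mice included, shared the missing leptin and the AMLN diet, a food rich in fat, fructose, and cholesterol that causes nonalcoholic steatohepatitis (NASH). They were obtained at an age of 5 weeks, fed the diet for 14 weeks, and then treated by mouth once daily for 2 weeks with vehicle (10 mice), obeticholic acid (OCA) at 30 mg/kg (9 mice), or INT-787 at 30 mg/kg (9 mice). Both compounds are agonists of the farnesoid X receptor (FXR), the nuclear receptor for bile acids. No lean or untreated mice were part of these samples, so every difference is one between treated and vehicle-treated NASH livers.

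Chemokines are named for the spacing of the first cysteines in the protein, and their receptors are membrane proteins that signal through G proteins of the inhibitory class. In the liver, Kupffer cells, endothelial cells, stellate cells, and injured hepatocytes release them. The pair CCL2 and CCR2 is known for bringing monocytes from the blood into the inflamed liver, CX3CR1 is known as a receptor of monocytes and macrophages, and CXCL9 and CXCL10 draw T cells that carry CXCR3.

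Vehicle replicate 6 had a total of only 1009593 counts, whereas the other libraries held between 9313260 and 22421506, so low genes were measured less precisely in vehicle replicate 6. Vehicle replicate 5 stood apart in another way: genes that lie almost wholly inside exons of a gene on the opposite strand took 0.134% of its counts, against 0.0261% to 0.0391% in the other 27 mice. Of the tested chemokine and receptor genes, *Cxcl16* (552 bases of its exons), *Ccl25* (204), *Cxcl10* (133), *Cxcr5* (110), *Cx3cr1* (78), and *Ccl27a* (8) share exon bases with a gene on the other strand.

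INT-787 changed 10 of the 31 tested genes compared with vehicle: 8 fell, namely the ligands *Ccl2*, *Ccl6*, *Ccl24*, *Cxcl14*, and *Cxcl16* and the receptors *Ccr1*, *Ccr2*, and *Cx3cr1*, and 2 rose, the ligands *Ccl9* and *Cxcl13*. Of these, *Cxcl13* was in the tested set only through its INT-787 values. Conversely, *Ccl8*, which was highest with vehicle, was below the limit and not tested. Throughout, a gene was said to rise, fall, or change at an adjusted *p* of at most 0.05 in the quasi-likelihood test of edgeR, adjusted after Benjamini and Hochberg over all 13250 tested genes. The share of changed genes was 32.3% among the chemokine and receptor genes and 19.1% among all tested genes. For falls alone the shares were 25.8% and 9.17%, and rises made up 9.96% of all tested genes. Rises were 52.1% of all changed genes, and 38.7% under upper-quartile normalization, which left each of the 10 family calls in place. The median log2 fold change of the 31 genes was -0.51, whereas that of all tested genes was near 0 (-0.0023).

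OCA changed 1 of the 31 genes, *Ccl24*, which fell. This is a share of 3.23%, beside 6.55% of all tested genes that OCA changed (4.01% rose and 2.54% fell), and the median log2 fold change of the 31 genes was -0.08. Directly compared at the matched dose, *Ccl6*, *Cxcl14*, *Ccr2*, and *Cx3cr1* were lower in INT-787 mice than in OCA mice, and 0 genes were higher in edgeR, DESeq2, or limma-voom. The share of 12.9% stands beside 4.94% of all tested genes, of which 2.85% were lower and 2.08% higher. At an unadjusted *p* under 0.05 in the same test 16 genes differed between INT-787 and vehicle, 5 between OCA and vehicle, and 9 between the compounds, beside 31.5%, 18.3%, and 18.3% of all tested genes. Both compounds were compared with the same 10 vehicle mice, so the comparisons with vehicle are not independent of each other. These genes varied more between mice of a group than most genes did, with a median biological coefficient of variation of 37.6% against 19.3% for all tested genes.

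**Figure D1:**
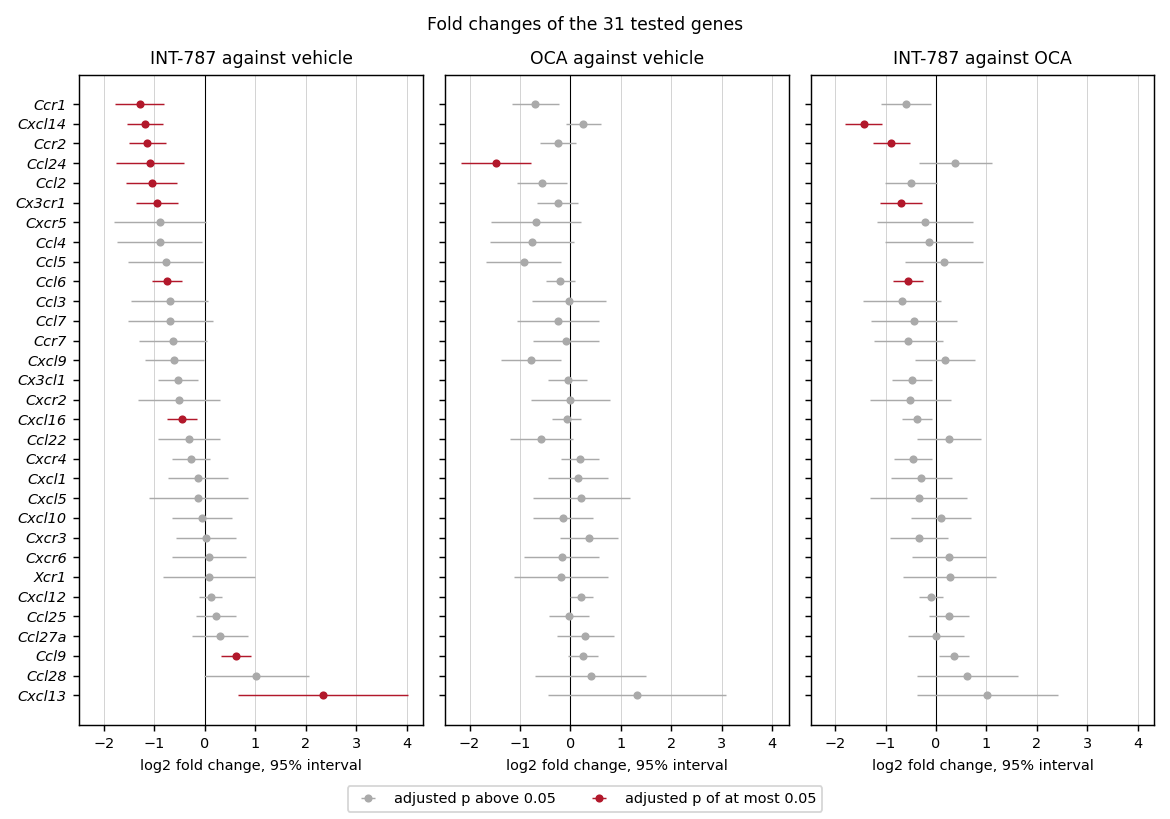
Log2 fold change of each of the 31 tested genes (points) with its 95% interval (lines), with INT-787 compared with vehicle on the left, OCA with vehicle in the middle, and both compounds on the right. Genes past the adjusted threshold are red, 10 on the left, 1 in the middle, and 4 on the right.

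Expressed per kilobase of exon, which allows levels of different genes to be compared, 5 ligands led in the liver. *Cxcl12*, the ligand of CXCR4 that keeps blood cells at their niches, had a mean of 30.3 CPM per kb over all mice and made up 28% of the summed level of the 37 ligands. *Ccl9* (17.9 CPM per kb), *Ccl6* (16.2), *Cxcl16* (8.98), and *Cxcl14* (7.17) followed. The leading receptors were *Cx3cr1* (3.56 CPM per kb), *Cxcr4* (2.24), *Ccr2* (1.53), *Cxcr3* (0.538), and *Ccr7* (0.428). This order held over all mice and differed between groups: *Ccl6* (19.4 CPM per kb) was above *Ccl9* (14.5) with vehicle, whereas *Ccl9* (22.3) was above *Ccl6* (11.7) with INT-787, where *Cxcl14* (3.58) was below *Cxcl9* (5.04) and *Ccl5* (4.89). *Ccr1* (0.603 CPM per kb) ranked above *Ccr7* with vehicle, and *Cxcr6* (0.394) did with INT-787.

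**Figure D2:**
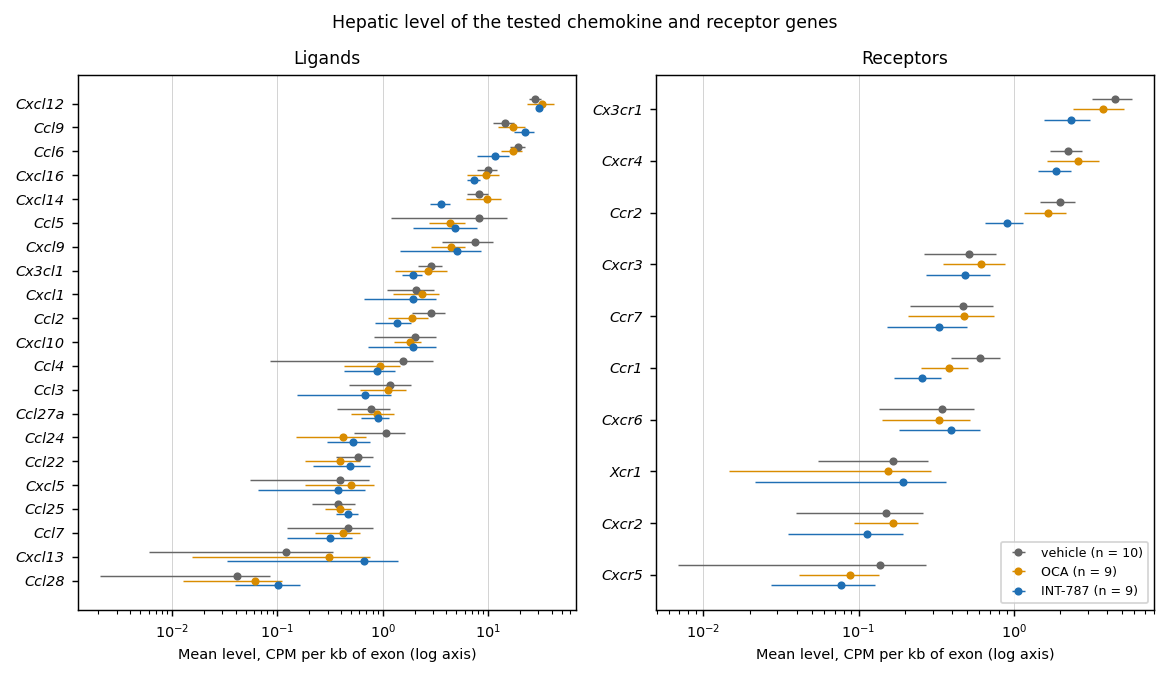
Mean level of each tested ligand (left) and receptor (right) in CPM per kb of exon on a log axis, with lines of ±1 SD, in 10 vehicle, 9 OCA, and 9 INT-787 mice (where the SD nears or exceeds the mean, the lower line stops at 5% of the mean). *Cxcl12* leads the ligands at 30.3 CPM per kb over all mice, and *Cx3cr1* leads the receptors at 3.56 CPM per kb.

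Among the CC ligands, *Ccl2* encodes the main attractant of monocytes. Its levels were 1.79 to 5.23 CPM with vehicle (median 3.35), 1.00 to 3.97 CPM with OCA (median 2.06), and 0.718 to 2.51 CPM with INT-787 (median 1.64). All 9 INT-787 mice were below the vehicle median, and 7 of them were below the lowest vehicle mouse. *Ccl2* fell with INT-787, at a log2 fold change of -1.05 ± 0.25 (SE; adjusted *p* = 0.0026), and with OCA the value was -0.56 ± 0.24 (adjusted *p* = 0.20). The direct difference between the compounds was -0.50 with a 95% interval from -1.01 to 0.02 (adjusted *p* = 0.29), which includes 0.

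*Ccl24*, or eotaxin-2, attracts eosinophils through CCR3 and is made by macrophages. It ranged from 0 to 2.51 CPM with vehicle (median 1.33), from 0.149 to 1.04 CPM with OCA (median 0.534), and from 0.237 to 1.20 CPM with INT-787 (median 0.594). All treated mice lay below the vehicle median. The OCA mice overlapped the vehicle mice only through vehicle replicate 6, the shallow library with 0 counts, and the INT-787 mice overlapped them also without it. *Ccl24* was the 1 gene of the family that fell with both compounds, by 1.48 ± 0.34 on the log2 scale with OCA (adjusted *p* = 0.0051) and by 1.09 ± 0.33 with INT-787 (adjusted *p* = 0.017). The compounds differed by 0.38, with a 95% interval from -0.35 to 1.11. Its receptor gene *Ccr3* was hardly detected, with 28 counts over all 28 mice.

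*Ccl6* and *Ccl9* encode related chemokines of mice that bind CCR1, and both are made mainly by macrophages and other myeloid cells. They are neighbours on chromosome 11 (GRCm38), on the minus strand, with *Ccl9* at 83572919 to 83578636, *Ccl6* at 83587882 to 83593087, and 9245 bases between them. They moved in opposite directions with INT-787, so the 300 bases around each annotated start are shown, from RefSeq on GRCm38.p6, read on the strand of the gene. Capitals mark motifs that were searched for on both strands: TATAAA, the AP-1 motif TGANTCA, and an NF-kB motif in *Ccl9*, where 2 matches of TATAAA overlap, and AGGTCA, the hexamer bound by FXR and many other nuclear receptors, in *Ccl6*.
*Ccl9*, chr11:83578587-83578886: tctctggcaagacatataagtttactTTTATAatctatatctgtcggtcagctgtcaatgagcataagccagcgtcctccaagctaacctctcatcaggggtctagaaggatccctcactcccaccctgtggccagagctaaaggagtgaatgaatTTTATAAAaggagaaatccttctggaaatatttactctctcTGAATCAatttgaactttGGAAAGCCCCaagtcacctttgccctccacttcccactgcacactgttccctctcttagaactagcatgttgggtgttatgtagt
*Ccl6*, chr11:83593038-83593337: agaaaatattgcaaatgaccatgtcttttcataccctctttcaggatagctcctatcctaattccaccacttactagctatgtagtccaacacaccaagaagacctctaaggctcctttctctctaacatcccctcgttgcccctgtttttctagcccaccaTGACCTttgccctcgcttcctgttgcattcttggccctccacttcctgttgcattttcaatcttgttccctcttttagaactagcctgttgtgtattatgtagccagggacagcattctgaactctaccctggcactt
A motif match is a description of the letters and says nothing about whether a factor binds there.

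*Ccl6* was measured at 20.2 to 39.9 CPM with vehicle (median 36.6), 22.5 to 44.9 CPM with OCA (median 28.9), and 14.3 to 37.0 CPM with INT-787 (median 18.8). Of the INT-787 mice, 8 of 9 were below the vehicle median and 6 were below the lowest vehicle mouse, which was the shallow replicate 6 with 22 counts. It fell by 0.75 ± 0.14 with INT-787 compared with vehicle (adjusted *p* = 0.00031) and was lower with INT-787 than with OCA (-0.55 ± 0.15, adjusted *p* = 0.023). The latter call was lost without OCA replicate 2 (-0.46, adjusted *p* = 0.053) and when the vehicle mice were left out of the fit (-0.54, adjusted *p* = 0.054). *Ccl9* went the other way, from 33.5 to 62.1 CPM with vehicle (median 42.3) to 49.8 to 93.9 CPM with INT-787 (median 65.3), with 37.7 to 81.2 CPM with OCA (median 48.1). All 9 INT-787 mice were above the vehicle median, and 6 were above the highest vehicle mouse. *Ccl9* rose by 0.61 ± 0.15 with INT-787 (adjusted *p* = 0.0032), whereas OCA gave 0.25 ± 0.15 (adjusted *p* = 0.38), and the direct difference of 0.36 had a 95% interval from 0.05 to 0.66 (adjusted *p* = 0.18).

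The other 8 tested CC ligands did not pass the threshold in any comparison. *Ccl5*, a ligand of CCR1 that T cells and NK cells release, was at 2.33 to 24.4 CPM with vehicle (median 7.36), 1.66 to 6.00 CPM with OCA (median 5.06), and 2.00 to 9.91 CPM with INT-787 (median 3.55). Its differences from vehicle were -0.78 ± 0.37 with INT-787 (adjusted *p* = 0.14) and -0.93 ± 0.37 with OCA (adjusted *p* = 0.15), and the highest vehicle value was that of replicate 10. *Ccl3* and *Ccl4*, which share receptors with *Ccl5*, had INT-787 medians of 0.343 and 0.553 CPM against vehicle medians of 0.757 and 0.894 CPM. Without INT-787 replicate 5, which was far above its group, *Ccl3* was lower with INT-787 than with vehicle (-1.04, adjusted *p* = 0.042). *Ccl7*, another ligand of CCR2, had medians of 0.376, 0.298, and 0.269 CPM with vehicle, OCA, and INT-787. *Ccl22*, a ligand of CCR4 released by dendritic cells and macrophages, had medians of 1.30, 0.871, and 0.990 CPM. The epithelial chemokines *Ccl25*, *Ccl27a*, and *Ccl28* had INT-787 medians of 3.32, 2.37, and 0.495 CPM and vehicle medians of 2.63, 1.62, and 0.176 CPM.

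Among the CXC ligands, *Cxcl14* showed a separation of INT-787 from both other groups. CXCL14 is a chemokine of epithelial and stromal tissues, and a receptor for it is not agreed upon. The gene lies on chromosome 13 at 56288643 to 56296551 on the minus strand. Its promoter window is shown because this gene separated the compounds. Capitals mark AGGTCA and the core of the interferon-stimulated response element, which is GAAA repeated after a gap of 2 bases.
*Cxcl14*, chr13:56296502-56296801: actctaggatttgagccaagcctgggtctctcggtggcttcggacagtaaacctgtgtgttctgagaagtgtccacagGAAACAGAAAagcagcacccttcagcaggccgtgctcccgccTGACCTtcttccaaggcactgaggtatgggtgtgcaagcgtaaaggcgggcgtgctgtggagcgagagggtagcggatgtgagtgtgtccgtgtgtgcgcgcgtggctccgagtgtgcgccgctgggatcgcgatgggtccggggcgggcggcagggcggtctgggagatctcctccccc

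*Cxcl14* was at 9.34 to 20.3 CPM with vehicle (median 14.1), 9.55 to 30.7 CPM with OCA (median 16.2), and 4.29 to 8.37 CPM with INT-787 (median 6.06). Every INT-787 mouse was below every vehicle mouse and below every OCA mouse. Such a separation in this direction was seen for 0.792% of all tested genes against vehicle and for 0.302% against OCA. The log2 fold change was -1.18 ± 0.18 against vehicle (adjusted *p* = 1.1e-05) and -1.43 ± 0.18 against OCA (adjusted *p* = 4.8e-06). OCA differed from vehicle by 0.26, with a 95% interval from -0.09 to 0.60 (adjusted *p* = 0.47). *Cxcl14* stayed past the threshold in both INT-787 comparisons under all 37 alternative settings tried.

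*Cxcl16*, a membrane-bound chemokine and scavenger receptor that can be shed and is read by CXCR6, was at 23.8 to 45.2 CPM with vehicle (median 27.2), 18.8 to 51.9 CPM with OCA (median 24.8), and 16.8 to 28.3 CPM with INT-787 (median 21.6). The groups overlapped, although 7 of 9 INT-787 mice were below the lowest vehicle mouse. The fall with INT-787 was small, -0.45 ± 0.15 (adjusted *p* = 0.026). The call was lost without INT-787 replicate 1 (adjusted *p* = 0.052), without vehicle replicate 10 (-0.37, adjusted *p* = 0.062), and without vehicle replicates 5 and 6 together (adjusted *p* = 0.053). It was also lost with the replicate number as a block in the fit (-0.37, adjusted *p* = 0.075). *Cxcl16* shares exon bases with *Zmynd15* on the other strand, and whether strand was used in counting is not given in the sources used here.

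*Cxcl13*, which guides B cells through CXCR5 into follicles, was scarce: 0 to 0.819 CPM with vehicle (median 0.0661), 0.0501 to 1.71 CPM with OCA (median 0.185), and 0 to 2.51 CPM with INT-787 (median 0.494). At most 10 reads were counted in a vehicle mouse and at most 36 in an INT-787 mouse, and the groups overlapped, with 3 of 9 INT-787 mice above the highest vehicle mouse. The means were 0.140 CPM with vehicle, 0.354 CPM with OCA, and 0.759 CPM with INT-787. *Cxcl13* reached the mean of 0.3 CPM asked for testing only through the INT-787 mice. It rose with INT-787 by 2.34 ± 0.82 (adjusted *p* = 0.030), with a 95% interval from 0.66 to 4.02. This call was among the least stable: it was lost without INT-787 replicate 8 (1.86, adjusted *p* = 0.092), INT-787 replicate 5 (adjusted *p* = 0.071), or vehicle replicate 1, 7, 8, or 9 (adjusted *p* = 0.0515 to 0.054), without vehicle replicates 5 and 6 together (2.21, adjusted *p* = 0.055), and with limma-voom (1.85, adjusted *p* = 0.095). The filterByExpr filter removed the gene before testing. OCA gave 1.32 ± 0.86 (adjusted *p* = 0.43). Its receptor gene *Cxcr5* had medians of 0.384, 0.286, and 0.299 CPM with vehicle, OCA, and INT-787.

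The interferon-inducible ligands of CXCR3 did not pass the threshold. *Cxcl9* was at 6.41 to 42.7 CPM with vehicle (median 25.1), 8.70 to 21.2 CPM with OCA (median 12.2), and 8.49 to 43.0 CPM with INT-787 (median 11.4). The medians of both treated groups were below the vehicle median, and 1 INT-787 mouse, replicate 8, was as high as the highest vehicle mouse. The differences were -0.61 ± 0.29 with INT-787 (adjusted *p* = 0.14) and -0.79 ± 0.29 with OCA (adjusted *p* = 0.11). Without INT-787 replicate 8 both passed, at -0.98 with INT-787 (adjusted *p* = 0.0053) and -0.79 with OCA (adjusted *p* = 0.038). *Cxcl10* had medians of 3.5, 3.82, and 3.83 CPM with vehicle, OCA, and INT-787, and its highest INT-787 value (11.2 CPM) belonged to replicate 8 as well.

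The most abundant ligand, *Cxcl12*, did not pass the threshold in any comparison. It was at 182 to 286 CPM with vehicle (median 224), 200 to 414 CPM with OCA (median 224), and 229 to 266 CPM with INT-787 (median 249). The difference from vehicle was 0.12 with INT-787, with a 95% interval from -0.11 to 0.35, and 0.21 with OCA, with an interval from -0.02 to 0.44. The neutrophil attractants *Cxcl1* and *Cxcl5* did not pass either, with *Cxcl1* medians of 3.31, 3.72, and 2.77 CPM and *Cxcl5* medians of 0.618, 0.924, and 0.724 CPM with vehicle, OCA, and INT-787.

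*Cx3cl1*, or fractalkine, is a membrane-anchored ligand that is read by CX3CR1. It was at 8.17 to 17.4 CPM with vehicle (median 11.1), 6.31 to 23.8 CPM with OCA (median 9.20), and 4.92 to 9.55 CPM with INT-787 (median 7.09). All 9 INT-787 mice were below the vehicle median, and 5 were below the lowest vehicle mouse. The difference of -0.54 ± 0.19 lay at the threshold (adjusted *p* = 0.052). It passed with DESeq2 (-0.56, adjusted *p* = 0.028), with limma-voom (-0.52, adjusted *p* = 0.048), when the OCA mice were left out of the fit (adjusted *p* = 0.0092), with DESeq2 size factors (adjusted *p* = 0.047), upper-quartile normalization (adjusted *p* = 0.036), or the filterByExpr filter (adjusted *p* = 0.049), and without INT-787 replicate 1, 2, or 4, vehicle replicate 2, 3, or 4, or OCA replicate 3, 4, 8, or 9 (adjusted *p* = 0.0095 to 0.050).

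Of the 10 tested receptor genes, 3 fell with INT-787, beside 9.17% of all tested genes. With OCA 0 passed in edgeR, 1 had an unadjusted *p* under 0.05, and DESeq2 and limma-voom each called *Ccr1*. In the direct comparison, 2 receptor genes were lower in INT-787 mice, beside 2.85% of all tested genes. *Ccr2*, the receptor of inflammatory monocytes, was at 6.91 to 18.8 CPM with vehicle (median 13.7), 7.41 to 18 CPM with OCA (median 9.43), and 3.71 to 8.43 CPM with INT-787 (median 6.59). All 9 INT-787 mice were below the medians of both other groups, 6 of them were below the lowest vehicle mouse, and 7 were below the lowest OCA mouse. The fold changes were -1.14 ± 0.18 against vehicle (adjusted *p* = 2.3e-05) and -0.88 ± 0.18 against OCA (adjusted *p* = 0.0034). OCA differed from vehicle by -0.25, with a 95% interval from -0.61 to 0.11 (adjusted *p* = 0.50).

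*Ccr1*, a receptor of monocytes and neutrophils that reads CCL3, CCL5, CCL6, and CCL9, had the deepest of the 8 falls with INT-787. Its levels were 0.916 to 2.83 CPM with vehicle (median 1.62), 0.489 to 1.60 CPM with OCA (median 1.13), and 0.374 to 1.14 CPM with INT-787 (median 0.728). All 9 INT-787 mice and all 9 OCA mice were below the vehicle median. The fold change was -1.29 ± 0.24 with INT-787 (adjusted *p* = 0.00017) and -0.69 ± 0.23 with OCA (adjusted *p* = 0.064). The OCA difference passed with DESeq2 (-0.72, adjusted *p* = 0.041), with limma-voom (-0.70, adjusted *p* = 0.043), and without vehicle replicate 4, OCA replicate 6, or vehicle replicate 10 (adjusted *p* = 0.043 to 0.046). With the replicate number as a block in the fit it passed as well (-0.79, adjusted *p* = 0.020). The compounds differed by -0.59, with a 95% interval from -1.09 to -0.09 (adjusted *p* = 0.17).

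*Cx3cr1*, the most abundant receptor gene per kilobase, was at 11.8 to 31.8 CPM with vehicle (median 19.7), 11.4 to 28.3 CPM with OCA (median 14.1), and 3.89 to 16.8 CPM with INT-787 (median 10.9). All 9 INT-787 mice were below the vehicle median, and 7 were below the lowest vehicle mouse. The fall was -0.95 ± 0.20 against vehicle (adjusted *p* = 0.0011), and it passed under all 37 alternative settings. The difference from OCA was -0.70 ± 0.21 (adjusted *p* = 0.044), and this call was fragile. It was lost without OCA replicate 1, 6, or 8, without INT-787 replicate 1, 3, 5, 6, 7, 8, or 9, without vehicle replicate 6, 7, or 8, or without vehicle replicates 5 and 6 together (-0.57 to -0.70, adjusted *p* = 0.051 to 0.14), with no filter on low counts (-0.68, adjusted *p* = 0.053), and when the vehicle mice were left out (-0.69, adjusted *p* = 0.065). The replicate number as a block in the fit also ended the call (-0.65, adjusted *p* = 0.11). OCA differed from vehicle by -0.25, with a 95% interval from -0.66 to 0.16.

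**Figure D3:**
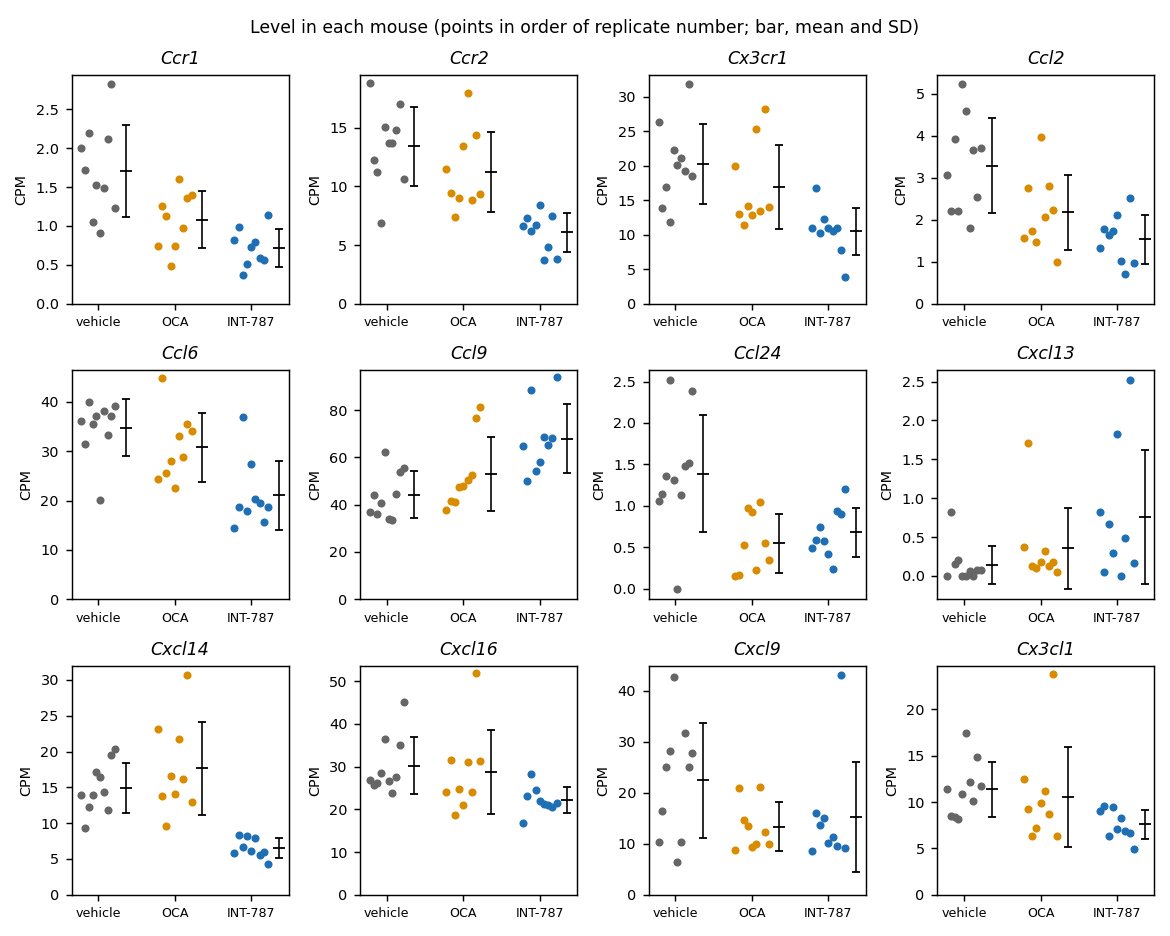
Level in CPM (y axes, linear, from 0 or just below) of the 10 genes that INT-787 changed and of *Cxcl9* and *Cx3cl1*, with 1 point per mouse and bars of mean ± SD for 10 vehicle, 9 OCA, and 9 INT-787 mice. For *Cxcl14* the INT-787 mice sit between 4.29 and 8.37 CPM, below all other mice, and for *Cxcl9* INT-787 replicate 8 sits alone at 43.0 CPM.

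*Ccr1* and *Ccr2* lie together on chromosome 9, within 151 kb (123962124 to 124113557, GRCm38), with *Ccr3* between them. Upstream of this stretch lie *Ccr9*, *Cxcr6*, and *Xcr1*, and the latter 2 were tested and did not pass in any comparison. *Cxcr6*, a receptor of liver-resident T and NK cells, had medians of 0.604, 0.521, and 0.667 CPM with vehicle, OCA, and INT-787. *Xcr1*, which marks cross-presenting dendritic cells, had medians of 0.643, 0.372, and 0.579 CPM.

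The other receptor genes did not pass the threshold. *Cxcr4*, the receptor of CXCL12, was at 2.75 to 5.38 CPM with vehicle (median 3.97), 2.51 to 8.15 CPM with OCA (median 4.66), and 1.89 to 4.71 CPM with INT-787 (median 3.49). The direct difference between the compounds was -0.46, with a 95% interval from -0.84 to -0.08 (adjusted *p* = 0.16). *Cxcr3*, which T cells use to follow CXCL9 and CXCL10, had medians of 0.775, 1.00, and 0.788 CPM with vehicle, OCA, and INT-787. *Ccr7*, the lymph node homing receptor, had medians of 0.868, 0.832, and 0.538 CPM, and *Cxcr2*, the main chemokine receptor of neutrophils, 0.327, 0.446, and 0.290 CPM.

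Read as ligand and receptor pairs, both sides fell with INT-787 for *Ccl2* and *Ccr2*. Of the other ligands paired with *Ccr2*, *Ccl7* did not pass, and *Ccl8* and *Ccl12* were not tested. For *Cx3cl1* and *Cx3cr1* the receptor fell and the ligand lay at the threshold. For *Cxcl16* and *Cxcr6*, and for *Ccl24* and *Ccr3*, the ligand fell and the receptor did not pass or was not tested. For *Ccr1*, which fell, the ligand *Ccl6* fell, *Ccl9* rose, and *Ccl3*, *Ccl4*, and *Ccl5* did not pass the threshold. For *Cxcl12* and *Cxcr4*, for *Cxcl9* and *Cxcl10* with *Cxcr3*, and for *Cxcl1* and *Cxcl5* with *Cxcr2*, neither side passed the threshold. For *Cxcl13* and *Cxcr5* the ligand rose and the receptor did not pass.

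The 23 genes below 0.3 CPM were not tested. Of these, *Ccl21a*, *Ccl21b*, *Ccl26*, *Ccl27b*, and *Cxcl15* had 0 counts in all mice. The closest to the limit from below were *Xcl1* (0.220 CPM), *Ccl8* (0.185 CPM), and *Ccl11* (0.176 CPM), and from above *Ccl7* (0.324 CPM) and *Ccl28* (0.326 CPM). When genes with low counts were not removed, 18 of these 23 could be fitted, and 1 passed the threshold in INT-787 against vehicle, *Ccl8* (adjusted *p* = 0.0013), a ligand of CCR2 named here after its values were seen. *Ccl8* was at 0 to 1.20 CPM with vehicle (median 0.344), 0 to 0.400 CPM with OCA (median 0.123), and 0 to 0.145 CPM with INT-787 (median 0), with at most 2 counts in an INT-787 mouse and at most 11 in a vehicle mouse. Other partners in pairs, *Ccl12*, *Ccl17*, *Ccl19*, *Ccl20*, *Cxcl2*, *Ccr4*, and *Ccr6*, had 9 to 72 counts over all mice. The remaining *Ccl1*, *Ccr8*, *Ccr9*, *Ccr10*, *Cxcl3*, *Cxcl17*, and *Cxcr1* had 6 to 50 counts over all mice.

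**Figure D4:**
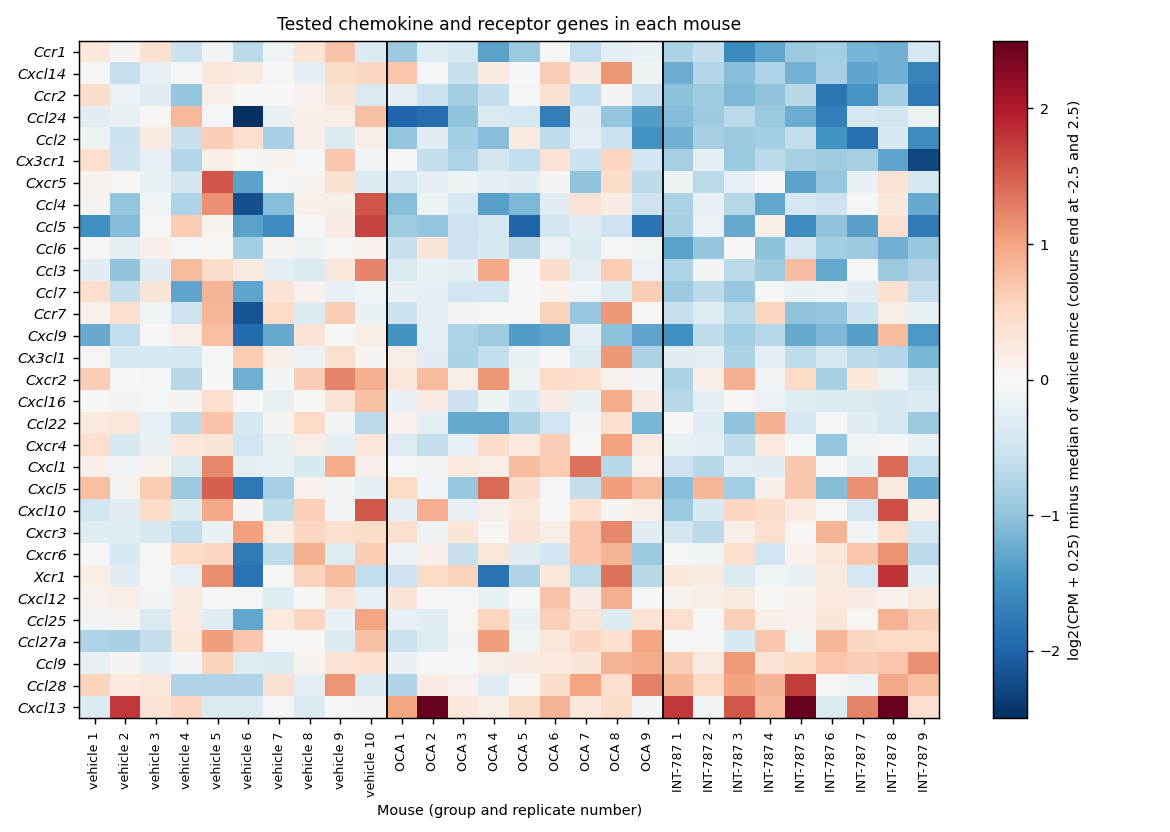
Level of the 31 tested genes in each of the 28 mice as log2(CPM + 0.25) minus the median of the vehicle mice, with rows ordered by the fold change of INT-787 against vehicle and black lines between the groups. The rows from *Ccr1* to *Cx3cr1* are mostly blue in the 9 INT-787 mice, and *Cxcl9*, *Cxcl10*, *Cxcl1*, and *Xcr1* are red in INT-787 replicate 8.

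Other genes of the chemokine system were read from lists of known function, whose counts of falls with INT-787 stand beside 9.17% of all tested genes that fell against vehicle and 2.85% that were lower than with OCA. Of 21 tested genes of signalling below chemokine receptors, 7 fell with INT-787 compared with vehicle, and 1, the integrin subunit *Itgb2*, was also lower with INT-787 than with OCA (-0.39 ± 0.11, adjusted *p* = 0.032), a call that 9 of 37 alternative settings did not keep. With OCA 0 of the 21 passed in edgeR, DESeq2, or limma-voom, and 1 had an unadjusted *p* under 0.05. The deepest falls were in *Rac2*, a GTPase of leukocytes (-0.59 ± 0.18, adjusted *p* = 0.021), *Dock2*, its activator in migrating leukocytes (-0.56 ± 0.14, adjusted *p* = 0.0052), *Grk3*, a receptor kinase (-0.53 ± 0.16, adjusted *p* = 0.020), and *Vav1* (-0.47 ± 0.12, adjusted *p* = 0.0063). The calls of *Rac2* and *Grk3* were lost without vehicle replicate 10 and vehicle replicate 2, respectively (adjusted *p* = 0.062 and 0.053). The median of this list was -0.33 with INT-787 and -0.07 with OCA.

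Of 7 tested proteases that cleave or shed chemokines, 2 fell with INT-787, again beside 9.17% of all tested genes: *Mmp12*, the macrophage elastase (-0.71 ± 0.17, adjusted *p* = 0.0027), and *Adam10*, a sheddase of fractalkine and CXCL16 (-0.34 ± 0.09, adjusted *p* = 0.0056). *Mmp12* was also lower with INT-787 than with OCA (-0.80 ± 0.17, adjusted *p* = 0.0042). Of 16 inducers and targets of NF-kB, the factor that turns on many chemokine genes, 4 fell with INT-787, with the deepest falls in the adhesion molecules *Selp* (-0.76 ± 0.16, adjusted *p* = 0.0012) and *Vcam1* (-0.74 ± 0.14, adjusted *p* = 0.00024), the latter of which was also lower than with OCA (-0.63 ± 0.14, adjusted *p* = 0.0072). OCA lowered 1, *Nfkb2* (-0.33 ± 0.10, adjusted *p* = 0.035), a call that 10 of 37 alternative settings did not keep. This count stands beside 2.54% of all tested genes that fell with OCA. Of 7 genes of the interferon gamma pathway, which induces *Cxcl9* and *Cxcl10*, 1 fell with INT-787, the receptor *Ifngr1* (-0.41 ± 0.14, adjusted *p* = 0.034), a call that 5 of 37 settings did not keep, and a count near the share of all tested genes. With OCA 0 of the 7 passed in any of the 3 tools, also at an unadjusted *p* under 0.05.

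Of 7 atypical chemokine receptors and family genes that the symbol rule does not cover, 2 fell with INT-787 compared with vehicle and 1 with OCA. These counts stand beside 9.17% and 2.54% of all tested genes. *Ackr2*, which removes inflammatory CC chemokines, differed by -0.59 ± 0.21 with INT-787 (adjusted *p* = 0.045), and 15 of 37 alternative settings did not keep the call. *Ackr4* had a fitted change of -2.61 with INT-787 and -2.64 with OCA, which rested on vehicle replicate 5 alone: that mouse had 92.3 CPM, whereas the medians were 1.53, 1.85, and 1.63 CPM with vehicle, OCA, and INT-787. Without vehicle replicate 5 the sign turned and the calls were lost (0.36 with INT-787, adjusted *p* = 0.35, and 0.33 with OCA, adjusted *p* = 0.55).

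Markers of some cell types also differed between the groups. In bulk liver, fewer cells of a type and less RNA per cell cannot be told apart. Counts of falls stand beside the same 9.17% and 2.85% of all tested genes. For rises the shares were 9.96% with INT-787 and 4.01% with OCA against vehicle, and 2.08% with INT-787 against OCA. Of 5 markers of monocytes, 4 fell with INT-787, and their summed level was 10.96 to 18.7 CPM with INT-787 (median 13.7), 15.1 to 34.9 CPM with vehicle (median 20.6), and 16 to 36.9 CPM with OCA (median 20.5). Of 5 markers of lipid-associated macrophages, 4 fell against vehicle and 5 were lower than with OCA. Their summed level was 439 to 740 CPM with INT-787, 697 to 1099 CPM with vehicle, and 748 to 2056 CPM with OCA. *Spp1*, which is also a cholangiocyte marker, made up much of this sum. Without vehicle replicates 5 and 6 together, 2 of the lipid-associated macrophage markers and 3 of the monocyte markers still fell against vehicle, with the calls of *Gpnmb*, *Trem2*, and *Chil3* lost. Of 37 alternative settings, *Trem2* lost its call in 11, *Ms4a4c* in 9, *Gpnmb* in 6, and *Chil3* in 2.

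Of 5 general macrophage markers 3 fell with INT-787, with sums of 320 to 616 CPM against 497 to 720 CPM with vehicle and 365 to 895 CPM with OCA. Of 5 markers of resident Kupffer cells 0 passed against vehicle, with sums of 176 to 378 CPM against 204 to 424 CPM. An unadjusted *p* under 0.05 was reached by 2 of them in opposite directions, *Cd5l* (-0.41, adjusted *p* = 0.060) and *Marco* (1.74, adjusted *p* = 0.089). DESeq2 and limma-voom called 1 each. Of the same 5, *Marco* was higher with INT-787 than with OCA (2.63 ± 0.75, adjusted *p* = 0.039), beside 2.08% of all tested genes. Its levels were 0.579 to 68.2 CPM with INT-787 (median 2.89) and 0.596 to 7.77 CPM with OCA (median 1.30). The *Marco* call was lost in 12 of 37 settings, among them limma-voom and leaving out INT-787 replicate 5 or 8. In turn, 1 of 6 dendritic cell markers fell, with sums of 14.5 to 30.2 CPM against 24.5 to 41.2 CPM. Stellate cell and myofibroblast markers fell in 4 of 5, with sums of 317 to 611 CPM against 654 to 1131 CPM. Compared with OCA, markers lower with INT-787 were 2 of the 5 of stellate cells and myofibroblasts, *Col1a1* (-1.58 ± 0.25, adjusted *p* = 0.00018) and *Acta2* (-1.05 ± 0.23, adjusted *p* = 0.0066), 2 of the 5 general macrophage markers (*Cd68* and *Mpeg1*), 1 of the 5 of monocytes (*Plac8*), 1 of the 6 of dendritic cells (*Itgax*), and, beside *Spp1*, 1 of the 5 of hepatocytes (*Serpina3k*). Against vehicle, of the 6 T cell markers and the 3 tested NK cell markers 0 passed with INT-787 in any of the 3 tools or at an unadjusted *p* under 0.05. Of 4 neutrophil and 3 B cell markers 1 each fell, and the neutrophil call, of *Retnlg*, was lost under 12 of 36 settings. Of 5 cholangiocyte markers 1 fell, *Spp1*, which is also in the list of lipid-associated macrophages and had a vehicle mean of 592 CPM. Of 5 markers of sinusoidal endothelial cells 0 passed in edgeR or limma-voom and 2 in DESeq2, and 3 had an unadjusted *p* under 0.05. Hepatocyte markers, the defining genes of the tissue, summed to 62736 to 138144 CPM with vehicle, 108634 to 199780 CPM with OCA, and 95005 to 166953 CPM with INT-787, where 1 of 5 rose and 1 fell. With OCA 2 of the 5 rose, beside 4.01% of all tested genes. These were *Alb* (0.63 ± 0.14, adjusted *p* = 0.0039) and *Fgb* (0.37 ± 0.11, adjusted *p* = 0.035, a call that 16 of 37 settings did not keep). With OCA, 0 of the 56 tested markers other than those of hepatocytes passed against vehicle in edgeR, DESeq2, or limma-voom, and 8 had an unadjusted *p* under 0.05. All lists held markers with counts, and none of the markers in the table was at 0 in every mouse. The part of cell numbers in the falls of *Ccr2*, *Ccr1*, *Cx3cr1*, *Ccl2*, *Ccl6*, and *Cxcl14* was not tested.

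**Figure D5:**
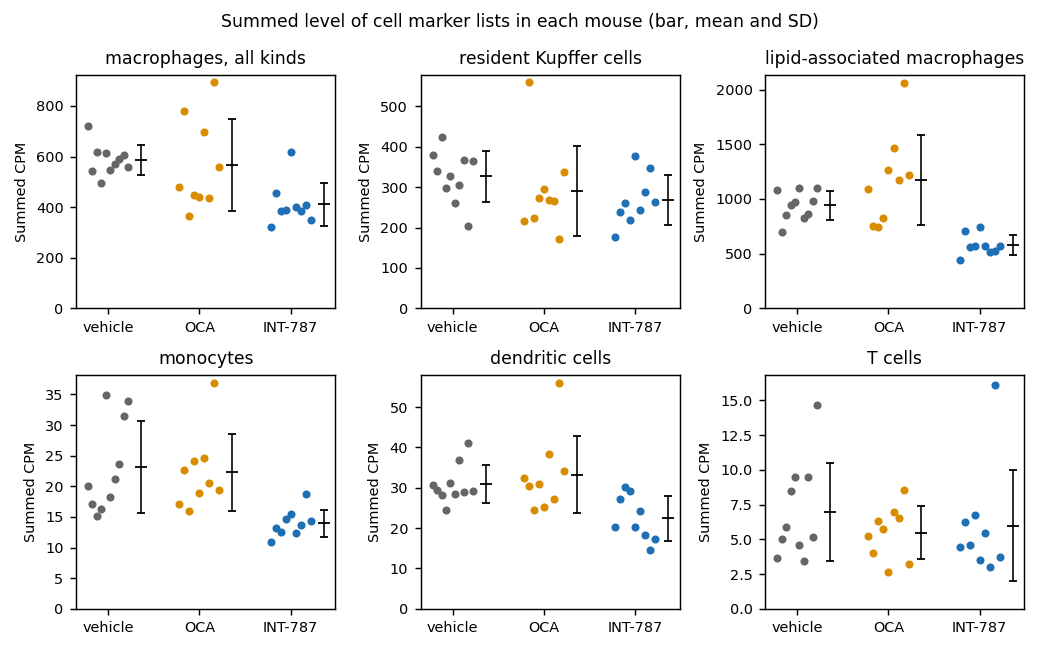
Summed CPM (y axes, linear, from 0) of 6 cell marker lists in each mouse, with bars of mean ± SD for 10 vehicle, 9 OCA, and 9 INT-787 mice. Monocyte and lipid-associated macrophage sums are low in INT-787 mice, with medians of 13.7 and 568 CPM against 20.6 and 958 CPM with vehicle, and the T cell sum is highest in an INT-787 mouse at 16.1 CPM.

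The promoter windows of the family were searched for the same letters. RefSeq windows were matched for 22 of the 31 tested genes. AGGTCA was found in 9 of these 22 genes (*Ccl3*, *Ccl6*, *Ccl22*, *Ccl25*, *Ccl27a*, *Cxcl9*, *Cxcl13*, *Cxcl14*, and *Cxcr2*) and in 18.1% of all 27025 genes with a window. The inverted repeat of AGGTCA with 1 base between the copies, the usual FXR site, was found in 0 of 22 and in 0.0111% of all genes. TATAAA was found in 7 of 22 genes and 15.7% of all genes, the AP-1 motif TGANTCA in 5 and 8.97%, and the NF-kB motif in 4 (*Ccl9*, *Ccl27a*, *Cxcl1*, and *Cxcl10*) and 6.55%. The interferon element core was found in 2 genes, *Cxcl10* and *Cxcl14*, and in 3.99% of all genes, and the PU.1 motif GAGGAAGT in 1 gene, *Cxcr3*, and 3.69%. AGGTCA is part of the inverted repeat, and TATAAA matches on both strands can overlap.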

How the data were processed

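Liver messenger RNA of 28 mice was sequenced from stranded libraries. The authors aligned the reads to GRCm38 with STAR and deposited raw, unscaled counts per Ensembl gene for each mouse. The counting program and its use of strand are not given in the sources used here. Of the 21935 genes, 21858 matched a symbol in GENCODE M21. That annotation holds further family genes by the symbol rule, *Cxcl11* among them, that were not analysed here, and 1 gene of the family is not reported here. It stayed in the fit across all genes. Groups were taken from the sample titles. The sources used here name no pairing of mice across groups. Same-numbered mice of replicates 1 to 3 nevertheless deviated from their group means together, with correlations of 0.17 to 0.57. Over all same-numbered pairs the median was 0.11, against 0.00056 for pairs with other numbers. Each sample is the liver of 1 mouse.

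Genes with a mean of at least 0.3 CPM over all mice (13250) were normalized with TMM and tested with glmQLFit and glmQLFTest of edgeR 4.0.16 (R 4.3.3) in a single model of the 3 groups without covariates, since the groups then share 1 estimate of the spread. Adjusted *p* are Benjamini-Hochberg values over all tested genes. Standard errors and 95% intervals come from the information matrix of the same fit. The fit was tested on simulated data before use. CPM use TMM-scaled totals, except for the limit of 0.3 CPM and the means of the genes named as closest to it, which use unscaled totals. DESeq2 (1.42.0), which the authors used, was an alternative, as were limma-voom (limma 3.58.1), other normalizations, other filters, only the 2 groups compared, the replicate number as a block, each mouse left out in turn, and vehicle replicates 5 and 6 left out together. Tables and figures were made with Python 3.11.15, pandas 2.3.3, and matplotlib 3.10.9.

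Named genes are the members changed in at least 1 comparison, the 5 ligands and 5 receptors of highest level per kb, members of known ligand and receptor pairs, and, from other lists, at most 4 changed genes each. The members and lists were chosen with earlier results of these data known. Total counts ranged from 1009593 to 22421506 per mouse, and 1 read in the smallest library is near 1 CPM. Counts of 0 in it therefore carry little weight.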

Additional observations from a re-analysis of the deposited data

Results flagged for a closer look

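For the 31 tested genes in each of the 3 groups, the highest and the lowest mouse were compared with the rest by Dixon's criterion at the 95% level. Of 93 groups of values 16 had such a mouse. For normally distributed values the criterion flags about 1 in 20, but many of these values are low counts. The 16 are therefore not compared with chance. INT-787 replicate 8 accounted for 4 of the 16, with *Cxcl9* at 43.0 CPM, *Cxcl10* at 11.2 CPM, *Cxcl1* at 9.22 CPM, and *Xcr1* at 2.86 CPM. The same mouse had the highest T cell marker sum of its group (16.1 CPM) and the highest NK cell marker sum (9.15 CPM). OCA replicate 8 accounted for 2, with *Cxcl16* at 51.9 CPM and *Cx3cl1* at 23.8 CPM, and it had the highest sum of its group for general macrophage (895 CPM), lipid-associated macrophage (2056 CPM), monocyte (36.9 CPM), stellate cell (1617 CPM), and cholangiocyte markers (1610 CPM), among others.

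OCA replicate 2 was highest for *Cxcl10* (6.80 CPM) and *Cxcl13* (1.71 CPM), and vehicle replicate 2 for *Cxcl13* (0.819 CPM). INT-787 replicate 5 was highest for *Ccl3* (1.46 CPM) and *Ccl28* (1.15 CPM), and INT-787 replicate 4 for *Ccl22* (2.61 CPM). OCA replicate 9 was highest for *Ccl7* (0.702 CPM), and vehicle replicate 10 for *Ccl5* (24.4 CPM). Vehicle replicate 5 was highest for *Cxcr5* (1.63 CPM), 1 of the genes that share exon bases with a gene on the other strand. Vehicle replicate 6, the library with the lowest total count, was lowest for *Ccl6* (20.2 CPM). The causes were not tested.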

How the results depend on the processing

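The number of changed family genes in INT-787 against vehicle stayed between 9 and 11 when each mouse was left out in turn, and it was 8 without vehicle replicates 5 and 6 together. For OCA against vehicle the range was 1 to 2, with 2 without vehicle replicate 4 or 10, OCA replicate 6, or INT-787 replicate 8, and with 2 also in DESeq2 and limma-voom, and for INT-787 against OCA it was 3 to 4, with 2 when only these 2 groups were fitted. With the replicate number as a block the counts were 9, 2, and 3: *Cxcl16* in INT-787 against vehicle was lost (-0.37, adjusted *p* = 0.075), as was *Cx3cr1* in INT-787 against OCA (-0.65, adjusted *p* = 0.11), and *Ccr1* in OCA against vehicle was gained (-0.79, adjusted *p* = 0.020). The labels do not pair the mice, and 14 of 27 same-numbered pairs had a correlation of deviations above 0.1, and 9 of 28 mice correlated best with their own number.

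Among 3435 refitted fold changes of single genes, 7 changed sign. *Cxcl16* in OCA against vehicle, near 0, ranged from -0.23 without OCA replicate 8 to 0.0085 without vehicle replicate 10. *Ackr4* ranged from -2.77 to 0.36 with INT-787 and from -2.80 to 0.33 with OCA when each mouse was left out, with the positive values without vehicle replicate 5, and it became 0.37 and 0.34 without vehicle replicates 5 and 6 together, and 0.33 and 0.30 in DESeq2. Upper-quartile normalization moved the share of rises among all genes changed by INT-787 from 52.1% to 38.7%, while the family count went from 10 to 11. Depth limits the 23 family genes below 0.3 CPM, of which *Ccl8* alone passed, in INT-787 against vehicle, when no gene was removed for low counts.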
